A study of Homo sapiens with 14 samples.

Results

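OVCAR-3 is an established human cell line from a high-grade serous type of ovarian cancer, and the account below covers its response to GSK-J4 after 72 h. The comparison was chosen by its samples: the 3 GSK-J4 libraries and the 3 GSK-J5 libraries of OVCAR-3 at 72 h, which are 6 of the 22 libraries of the series and come from 4 of its 14 samples. Cells were treated with 2.5 µM GSK-J4, an inhibitor of the histone demethylases UTX (KDM6A) and JMJD3 (KDM6B), or with 2.5 µM GSK-J5, which the labels name as the control compound. Replicates 1 and 2 of both compounds form a first library set, for which the labels give stripped medium and the RNeasy mini kit. Replicate 3 of both compounds forms a second set, for which they give serum in the medium, the RNeasy Plus kit and poly(A) enrichment. The set and replicate 3 are one and the same, so kit, medium and library preparation cannot be told apart from each other. All libraries come from 1 cell line grown in wells, the labels list no untreated cells, and nothing in them says that replicates were separate cultures. P-values therefore measure only the spread between these libraries, which may be technical.

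KDM6A and KDM6B remove methyl groups from lysine 27 of histone H3, a mark that Polycomb repressive complex 2 writes and that accompanies silent developmental genes such as the HOX clusters. Cells exposed to metals, oxidants, unfolded protein or amino acid shortage switch on separate transcription programmes. Metal-responsive transcription factor 1 drives metallothioneins, NRF2 drives redox enzymes, heat shock factor 1 drives chaperones, and ATF4 drives amino acid synthesis and transport.

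The 6 libraries held 24305501 to 32791829 counts, and between 14680 and 16504 genes had at least 10 counts. Levels are given as CPM, the usual depth-scaled read count, after correction by trimmed mean of M values (TMM), and 3 values in a row are always those of replicates 1, 2 and 3. A pair ratio is the log2 ratio of GSK-J4 over GSK-J5 in the libraries with the same number, a way of showing each replicate and not a claim that the numbers pair the cultures. The chi-square statistic per gene between replicates 1 and 2 was 33.1 with GSK-J4 and 9.85 with GSK-J5, so no pair of libraries was a duplicate. Against replicate 3 it was 281 to 286 with GSK-J4 and 61.2 to 64.8 with GSK-J5, so the second set stood apart for both compounds. All 6 epithelial and all 6 ovarian lineage markers reached a mean of 1 CPM. Of the markers of other cell types, 2 of 9 fibroblast genes, 3 of 7 endothelial genes and 1 of 7 leukocyte genes did. The summed fibroblast markers were at 7.12 to 39.8 CPM with GSK-J4 and 36.7 to 49.6 CPM with GSK-J5, the endothelial markers at 1.86 to 4.70 and 6.31 to 6.58 CPM, and the leukocyte markers at 0.671 to 5.25 and 2.34 to 5.82 CPM. DCN and CD68 were at 0 in all 6 libraries.

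The transcripts of both targets of the compound were present in all libraries, and whether they were called in the first set depended on the scaling. Gene positions are those of GENCODE release 29 on GRCh38, the build the submitters' notes name. KDM6B (ENSG00000132510.10, chr17:7839904-7854796) was at 102, 114 and 129 CPM with GSK-J4, against 97.7, 101 and 108 CPM with GSK-J5. KDM6A (ENSG00000147050.14, chrX:44873177-45112602) was at 23.1, 20.4 and 27.5 CPM with GSK-J4, against 22.9, 24.0 and 24.1 CPM with GSK-J5. The groups overlapped for both genes, and in the fit of all 6 libraries edgeR gave adjusted p = 0.40 for KDM6B and 0.971 for KDM6A. In the first set alone neither was called under TMM, at 0.15 ± 0.10 (SE) for KDM6B and -0.07 ± 0.12 (SE) for KDM6A on the log2 scale. When libraries were scaled by their totals alone, both were called lower in the first set, at -0.42 (edgeR, adjusted p = 0.00434) for KDM6B and -0.65 (edgeR, adjusted p = 0.00152) for KDM6A. At 48 h, in other libraries and with no test here, the pair ratios of KDM6B were 0.85 and 0.92, against 0.07, 0.17 and 0.25 at 72 h. An inhibitor acts on the proteins, so these transcript levels do not check the labels.

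The response was large in replicates 1 and 2, and smaller in replicate 3. In the edgeR fit of the 4 libraries of the first set, 5626 of 16281 genes rose with GSK-J4 (34.6%) and 6047 fell (37.1%) at an adjusted p under 0.05. Below, rose and fell mean a call in this fit unless another one is named. With the second set added and the set as a covariate, edgeR called 5 genes higher of 16802 (0.0298%) and 0 lower (0.0%), whereas 7244 had an unadjusted p under 0.05 and 6422 an adjusted p under 0.1, of which 3275 were higher and 3147 lower. DESeq2 called 3344 genes higher and 2990 lower, and limma voom 4 and 0. The biological coefficient of variation was 0.331 over the 6 libraries and 0.118 within the first set. Independently of any test, 3382 genes (20.1%) had all 3 GSK-J4 libraries above all 3 GSK-J5 libraries, and 3232 (19.2%) had them all below. Scaling by library totals alone gave 3199 higher and 8816 lower calls in the first set, and 2056 genes above and 5131 below. It moved the median pair ratio of all genes by -0.52, -0.54 and -0.09. Below, the calls of each list under library totals stand in parentheses after its calls under TMM. The calls under TMM stand beside shares of 34.6% higher and 37.1% lower over all genes. Those under library totals stand beside the 3199 higher and 8816 lower of 16281 genes, where falls far outnumber rises. Counts of genes above or below under library totals stand beside 2056 and 5131 of 16802. In a bulk library, fewer cells of a kind and less RNA per cell cannot be told apart.

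Of the 5626 genes that rose in the first set, 4109 (73%) had a pair ratio above 0 in replicate 3, against 52.4% of all genes of that fit. Their median pair ratios were 1.05, 1.07 and 0.21. Of the 6047 that fell, 3854 (63.7%) were below 0 in replicate 3, against 47.5% of all genes, with medians of -1.39, -1.5 and -0.13. The direction was thus shared more often than not, at a much smaller size. All 3 pair ratios were at least 1 for 352 genes and at most -1 for 381, whereas replicates 1 and 2 alone gave 2637 and 3970. Taken over genes, which share libraries and are no replicates, Pearson's r between the pair ratios was 0.87 for replicates 1 and 2, and 0.17 between their mean and replicate 3. The plot of the first set against the second shows NGFR and MT2A high on both axes, and GDF15 high on the first axis mainly.

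**Figure D1:**
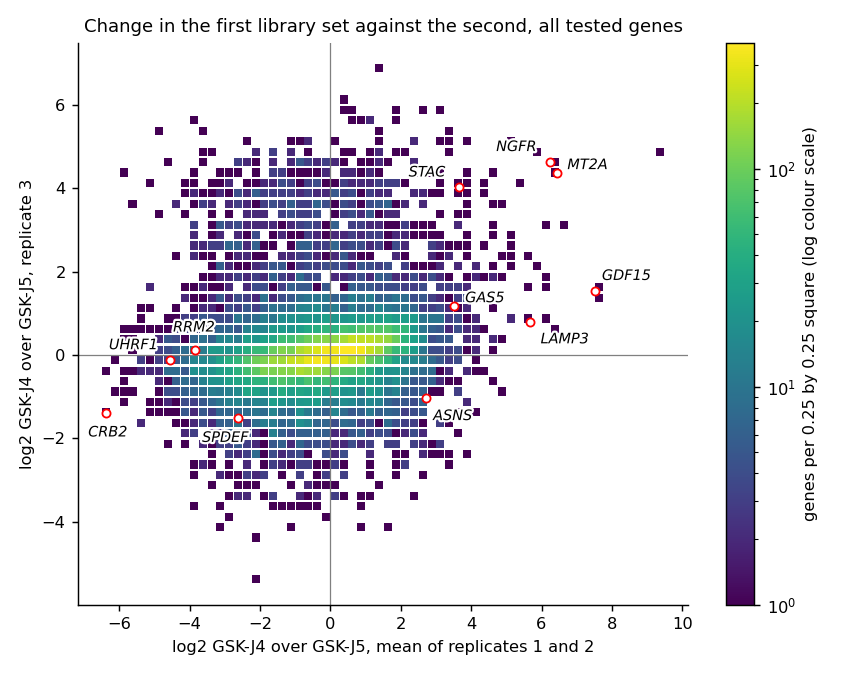
Pair ratios of 16802 genes, as the mean of replicates 1 and 2 on the x axis and replicate 3 on the y axis, both log2 GSK-J4 over GSK-J5, with the number of genes per square in colour. Circles mark 11 genes, of which RRM2, UHRF1 and ASNS were chosen after their values were seen; the cloud is wide along x and narrow along y, with SDs over genes of 1.55 and 1.59 for replicates 1 and 2 and 0.96 for replicate 3.

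The genes that moved the same way in every replicate are led by a growth factor receptor, a vasoconstrictor peptide, an adaptor protein and metallothioneins. NGFR, the low-affinity neurotrophin receptor (ENSG00000064300.9, chr17:49495293-49515017), was at 74.0, 70.9 and 50.7 CPM with GSK-J4, against 0.860, 0.974 and 2.02 CPM with GSK-J5. EDN2, which encodes endothelin 2 (ENSG00000127129.10, chr1:41478775-41484673), was at 108, 116 and 10.9 CPM with GSK-J4, against 4.04, 3.64 and 0.836 CPM with GSK-J5. STAC, an adaptor of voltage-gated calcium channels (ENSG00000144681.10, chr3:36380344-36548007), was at 19.3, 19.2 and 7.32 CPM with GSK-J4, against 1.34, 1.66 and 0.418 CPM with GSK-J5. For each of the 3 the lowest GSK-J4 library lay above the highest GSK-J5 library. NGFR averaged 65.2 ± 12.6 CPM with GSK-J4 and 1.28 ± 0.639 CPM with GSK-J5 (SD, n = 3 each). Its pair ratios were 6.37, 6.13 and 4.63, and its log2 change in the second set minus the first was -1.63 ± 0.27 (SE). The first-set log2 changes were 6.33 ± 0.15 (SE) for NGFR, 4.90 ± 0.13 (SE) for EDN2 and 3.72 ± 0.18 (SE) for STAC, with edgeR adjusted p-values of 1.04e-07, 1.29e-07 and 7.89e-07. In EDN2 and STAC both libraries of replicate 3 were lower than the others of their compound, and the pair ratios were 4.73, 4.98 and 3.65 for EDN2 and 3.81, 3.51 and 4.02 for STAC. The log2 change of EDN2 in the second set minus the first was -1.14 ± 0.30 (SE) (edgeR, adjusted p = 0.0123), and the difference for STAC was 0.45 ± 0.43 (SE) (edgeR, adjusted p = 0.411). CACNG1, a skeletal muscle calcium channel subunit (ENSG00000108878.5, chr17:67044590-67056797), was at 9.85, 11.7 and 0.963 CPM with GSK-J4, against 0.159, 0.13 and 0 CPM with GSK-J5; in replicate 3 it had 33 counts against 0, at least 9.21-fold. With MT1M, these are the 5 genes called in the fit of all 6 libraries, where edgeR gave them adjusted p-values between 0.0259 and 0.0379. The call depended on which libraries were in the fit: with any 1 of the 4 first-set libraries left out, edgeR called 0 genes. With both libraries of replicate 1 left out, or both of replicate 2, edgeR still called all 5. Without GSK-J4 replicate 3 it called 5688 higher and 6135 lower, and without GSK-J5 replicate 3 it called 5509 and 6311, since the set term then absorbs the lone second-set library.

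Further genes with large rises in all replicates were HSPA6, CXCL8, ITPKA and NR1D1. ITPKA, an inositol trisphosphate kinase that also bundles actin (ENSG00000137825.11, chr15:41493393-41503551), was at 21.4, 22.8 and 10.0 CPM with GSK-J4, against 2.20, 1.95 and 1.85 CPM with GSK-J5. NR1D1, the circadian repressor REV-ERB alpha (ENSG00000126368.6, chr17:40092787-40100725), was at 117, 152 and 31.3 CPM with GSK-J4, against 3.98, 4.09 and 6.13 CPM with GSK-J5. LINC01881, a transcribed pseudogene (ENSG00000220804.8, chr2:242088633-242160153), was at 13.8, 9.97 and 5.25 CPM with GSK-J4, against 1.40, 1.10 and 0.731 CPM with GSK-J5. The compounds were separate in each of these genes, and their first-set changes were 3.45 ± 0.16 (SE), 5.09 ± 0.17 (SE) and 3.27 ± 0.25 (SE) on the log2 scale. The long intergenic RNA gene ENSG00000274213 (chr17:56914186-56914533) had pair ratios of 3.42, 3.06 and 4.34, the last from 24 counts against 0. The pair ratios of NR1D1 had been 3.59 and 3.4 at 48 h, and those of ITPKA 3.26 and 2.91.

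The genes lowered in every replicate include a chemokine receptor, an epithelial transcription factor and a basement membrane collagen. COL4A6, a type IV collagen chain (ENSG00000197565.15, chrX:108155607-108439497), was at 2.32, 1.96 and 2.98 CPM with GSK-J4, against 9.01, 9.55 and 7.84 CPM with GSK-J5. ACKR3, an atypical receptor that scavenges CXCL12 (ENSG00000144476.6, chr2:236567787-236582358), was at 0.206, 0.147 and 1.81 CPM with GSK-J4, against 2.77, 2.66 and 5.50 CPM with GSK-J5. SPDEF, an ETS factor of secretory epithelium (ENSG00000124664.11, chr6:34537802-34556333), was at 0.877, 0.687 and 1.25 CPM with GSK-J4, against 5.48, 4.51 and 3.66 CPM with GSK-J5. The groups were separate in each, and the highest GSK-J4 library was the third. Their first-set log2 changes were -2.08 ± 0.21 (SE) for COL4A6, -3.88 ± 0.44 (SE) for ACKR3 and -2.64 ± 0.30 (SE) for SPDEF, with edgeR adjusted p-values of 2.45e-05, 5.94e-05 and 5.95e-05, and SPDEF averaged 0.940 ± 0.289 CPM with GSK-J4 and 4.55 ± 0.911 CPM with GSK-J5 (SD, n = 3 each). MSLNL, a gene related to mesothelin (ENSG00000162006.9, chr16:769428-783370), was at 1.91, 1.28 and 0.671 CPM with GSK-J4, against 7.23, 7.08 and 2.68 CPM with GSK-J5, with like pair ratios in all replicates (-1.90, -2.44 and -1.94). EFR3B (ENSG00000084710.14, chr2:25042130-25159137) was at 1.39, 0.540 and 2.04 CPM with GSK-J4, against 5.19, 6.04 and 5.89 CPM with GSK-J5. CRB2, a Crumbs polarity protein (ENSG00000148204.12, chr9:123356170-123380324), had the largest fall of these genes in the first set, -6.6 ± 0.28 (SE), with pair ratios of -6.41, -6.33 and -1.39 at 72 h and of -2.71 and -3.27 at 48 h. COL4A6 had been at -0.45 and -0.59 at 48 h. The others named by the same rule were TCF24, NUTM2D, JDP2-AS1, ECI1-AS1, ENSG00000233251 and ENSG00000273230, with pair ratios between -4.35 and -1.32 over all replicates. In JDP2-AS1 the groups overlapped. Whether counting used strand is not given in the sources here, and the antisense genes among these others (JDP2-AS1, ECI1-AS1 and ENSG00000233251) cannot be told apart from reads of their overlapping partners.

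**Figure D2:**
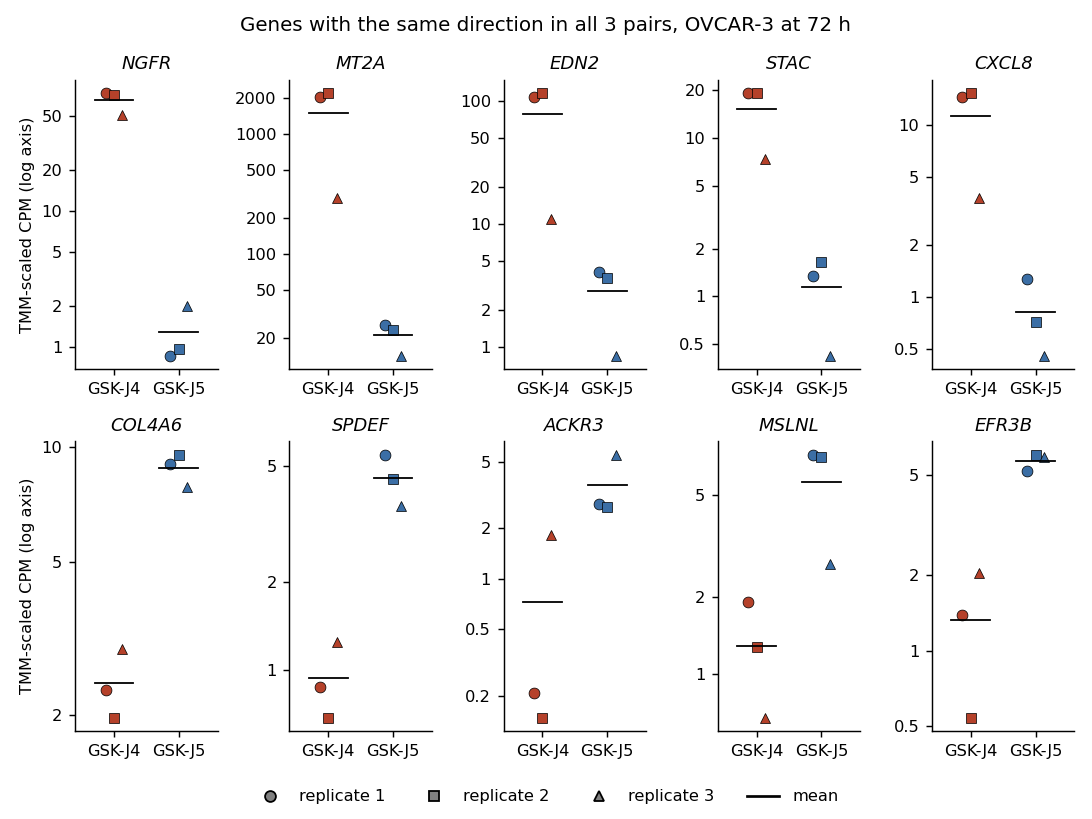
TMM-scaled CPM on log axes of 10 genes that moved the same way in all replicates, GSK-J4 left and GSK-J5 right in each panel, with 1 symbol per library and a line at the mean. The libraries of the compounds do not overlap in any panel, which the choice of genes by the largest smallest pair ratio favours. NGFR runs from 50.7 to 74.0 CPM with GSK-J4 and from 0.860 to 2.02 CPM with GSK-J5.

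Metallothioneins, small cysteine-rich proteins that bind zinc and copper, had the highest median first-set change of the lists. Of 10 members of the list of metallothioneins and zinc handling tested in the first set, 9 rose and 1 fell (7 and 1 under library totals), and of 11 in the fit of 6 libraries 7 had all GSK-J4 libraries above. MT2A (ENSG00000125148.7, chr16:56608199-56609497) was at 2003, 2187 and 292 CPM with GSK-J4, against 25.4, 23.2 and 14.1 CPM with GSK-J5. MT1F (ENSG00000198417.7, chr16:56657694-56660698) was at 233, 183 and 20.3 CPM with GSK-J4, against 6.81, 7.70 and 5.12 CPM with GSK-J5. Both were well above GSK-J5 in every replicate, and in replicate 3 the GSK-J4 level was far below that of the other GSK-J4 libraries. MT1M (ENSG00000205364.4, chr16:56632233-56633986) had 1326 counts over its GSK-J4 libraries and a single count, 1, over its GSK-J5 libraries, a ratio of 1628.5 after scaling (95% counting interval 292 to 64370.0). In replicate 3 it had 38 counts against 0, at least 10.6-fold. SLC30A1, SLC30A2 and MT3 were chosen after their values were seen. SLC30A1, the plasma membrane zinc exporter and an MTF1 target, had pair ratios of 3.26, 3.58 and 1.61, and SLC30A2, a vesicular zinc transporter, of 5.91, 6.21 and 1.69. MT3, the brain-type metallothionein, went the other way, with all GSK-J4 libraries below, and had 3 counts in all over the GSK-J4 libraries and 39 over the GSK-J5 libraries, a GSK-J5 over GSK-J4 ratio of 10.6 (95% counting interval 3.37 to 53.5; such intervals, and the lower bounds, cover counting error alone). SLC39A10, a zinc importer, fell in the first set (-0.37 ± 0.12 (SE)) and had a pair ratio of 0.60 in replicate 3. The MT1 genes are near-identical copies, so the split of counts between them is uncertain.

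Promoters of metallothionein genes are shown because most members of that list rose in the first set. RefSeq windows from 250 bases before to 50 after the gene start (GRCh38.p14) were searched on both strands for the core of the metal response element, spelled TGCACNC or TGCGCNC, with overlapping matches counted. Capitals mark the matches, of which MT2A holds 8 (chr16:56608334-56608633, plus strand) and MT1X holds 4 (chr16:56682220-56682519, plus strand).
MT2A: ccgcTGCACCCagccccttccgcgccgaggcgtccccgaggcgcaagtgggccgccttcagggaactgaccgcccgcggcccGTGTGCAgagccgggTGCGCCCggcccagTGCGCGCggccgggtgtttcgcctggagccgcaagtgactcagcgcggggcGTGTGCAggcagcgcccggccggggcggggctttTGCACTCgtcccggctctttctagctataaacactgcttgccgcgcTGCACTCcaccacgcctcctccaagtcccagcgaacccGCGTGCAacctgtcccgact
MT1X: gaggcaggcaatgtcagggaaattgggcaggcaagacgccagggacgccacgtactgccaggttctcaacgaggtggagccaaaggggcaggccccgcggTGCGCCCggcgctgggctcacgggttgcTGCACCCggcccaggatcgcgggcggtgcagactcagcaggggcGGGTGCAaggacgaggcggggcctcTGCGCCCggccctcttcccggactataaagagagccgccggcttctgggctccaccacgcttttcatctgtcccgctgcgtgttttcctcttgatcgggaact
Of 35116 RefSeq promoter windows, 29.6% held at least 1 match, 0.601% at least 4 and 0.0199% at least 8. Of the 11 tested genes of the list, 6 had a promoter entry and 5 of these held a match. MT1X was at 40.0, 26.9 and 1.78 CPM with GSK-J4, against 0.287, 0.455 and 1.11 CPM with GSK-J5, so it rose in the first set while replicate 3 held a ratio of 0.66, and the difference between the sets was -5.79 ± 0.58 (SE) (edgeR, adjusted p = 0.000102).

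Heat shock and unfolded protein genes moved less, with a few large changes. Of 21 cytosolic heat shock genes, 14 rose and 1 fell (9 and 7 under library totals) in the first set, 11 had all GSK-J4 libraries above and 0 had them all below, or 7 and 1 under library totals, and the median pair ratios were 0.62, 0.65 and 0.28, against -0.12, -0.17 and 0.02 over all genes. HSPA6, a strictly inducible HSP70 (ENSG00000173110.8, chr1:161524540-161526910), was at 29.6, 27.4 and 1.11 CPM with GSK-J4, against 0.287, 0.195 and 0.104 CPM with GSK-J5. DNAJB1, an HSP40 cochaperone (ENSG00000132002.8, chr19:14514770-14529770), was at 569, 494 and 206 CPM with GSK-J4, against 129.7, 125 and 129 CPM with GSK-J5. CRYAB, the small chaperone alpha B-crystallin (ENSG00000109846.8, chr11:111908565-111923722), was at 14.4, 15.2 and 26.4 CPM with GSK-J4, against 6.24, 5.58 and 13.8 CPM with GSK-J5. None of the 3 overlapped between compounds, but HSPA6 in replicate 3 rests on 38 counts against 3, a ratio of 10.6 (95% counting interval 3.37 to 53.7). HSPB1, another small heat shock protein, was the member that fell, at 381, 451 and 551 CPM with GSK-J4, against 680.3, 554 and 527 CPM with GSK-J5, and its groups overlapped. At 48 h the medians of this list had been -0.24 and -0.07, and the pair ratios of HSPA6 2.51 and 3.37. The HSPA6 promoter (chr1:161524290-161524589, plus strand, RefSeq, GRCh38.p14) is shown for its single match to the heat shock element, the units GAA, TTC and GAA with NN between each, in capitals and found on the other strand.
HSPA6: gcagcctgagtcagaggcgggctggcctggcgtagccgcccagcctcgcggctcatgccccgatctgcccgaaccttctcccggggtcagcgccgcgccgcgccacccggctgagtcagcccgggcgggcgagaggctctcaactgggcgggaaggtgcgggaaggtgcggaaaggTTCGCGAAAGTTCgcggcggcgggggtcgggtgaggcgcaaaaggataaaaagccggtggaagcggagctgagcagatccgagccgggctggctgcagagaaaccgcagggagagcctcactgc
That motif was in 0.490% of all promoter windows and in 8 of the 19 with an entry on this list. Of 25 genes of the unfolded protein response of the endoplasmic reticulum, 15 rose and 3 fell (11 and 8 under library totals), and 13 had all GSK-J4 libraries above and 0 below, or 8 and 2 under library totals. HSPA5, the chaperone BiP, was at 2856, 3003 and 1795 CPM with GSK-J4, against 1096, 1104 and 1163 CPM with GSK-J5. ERN1, the sensor kinase IRE1 alpha, was at 99.1, 111 and 55.2 CPM with GSK-J4, against 10.2, 11.9 and 31.2 CPM with GSK-J5. DNAJB9, an IRE1-dependent cochaperone, had pair ratios of 1.79, 1.84 and 0.74. The 3 that fell were EDEM1, CRELD2 and SDF2L1, with first-set changes of -1.05 ± 0.13 (SE), -0.83 ± 0.15 (SE) and -0.48 ± 0.13 (SE), and with ratios above 0 in replicate 3. Of 31 proteasome subunits 23 rose and 2 fell (12 and 10 under library totals), and 15 lay above and 2 below in all replicates (8 and 3), led by PSMD7 with pair ratios of 1.43, 1.2 and 0.88.

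Redox enzymes of the NRF2 programme were raised in all replicates. Of 24 genes tested, 23 rose in the first set and 1 fell (20 and 2 under library totals), and 22 had all GSK-J4 libraries above all GSK-J5 libraries, or 20 under library totals. The median pair ratios were 1.29, 1.56 and 0.70, and at 48 h 0.60 and 0.46. OSGIN1, an oxidative stress-induced growth inhibitor (ENSG00000140961.13, chr16:83948282-83966332), was at 65.4, 80.8 and 21.5 CPM with GSK-J4, against 5.83, 4.84 and 7.49 CPM with GSK-J5. AKR1C3, an aldo-keto reductase of steroids and prostaglandins (ENSG00000196139.14, chr10:5035354-5107686), was at 5.78, 6.09 and 3.68 CPM with GSK-J4, against 1.37, 1.82 and 1.43 CPM with GSK-J5. AKR1C2, a close paralog (ENSG00000151632.17, chr10:4987400-5018031), was at 1.5, 0.835 and 1.34 CPM with GSK-J4, against 0.255, 0.162 and 0 CPM with GSK-J5, with 46 counts against 0 in replicate 3, at least 12.8-fold. The AKR1C genes are similar in sequence, so their split is uncertain. Among genes chosen after their values were seen, GCLC, the catalytic subunit of the rate-limiting enzyme of glutathione synthesis, was at 273, 293 and 116 CPM with GSK-J4, against 30.7, 29.4 and 53.2 CPM with GSK-J5, and PIR, encoding pirin, was at 17.7, 19.0 and 10.6 CPM with GSK-J4, against 7.39, 7.86 and 4.53 CPM with GSK-J5, with like ratios in all replicates (1.26, 1.27 and 1.23). SLC7A11, the cystine importer shared by the NRF2 and ATF4 lists, was the member that fell, -1.01 ± 0.15 (SE), and it was also lower in replicate 3, at 9.34, 8.05 and 23.8 CPM with GSK-J4, against 17.3, 18.6 and 68.3 CPM with GSK-J5. Its groups overlapped, since both libraries of replicate 3 stood above the others of their compound.

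Genes downstream of NF-kB and their cytokines rose together. Of 18 genes, 16 rose and 1 fell (12 and 1 under library totals) in the first set, 12 had all GSK-J4 libraries above and 0 had them all below, with median pair ratios of 1.90, 2.10 and 0.70. CXCL8, the neutrophil chemokine interleukin 8 (ENSG00000169429.11, chr4:73740506-73743716), was at 14.6, 15.4 and 3.79 CPM with GSK-J4, against 1.27, 0.714 and 0.453 CPM with GSK-J5. CXCL3, another neutrophil chemokine (ENSG00000163734.4, chr4:74036589-74038807), was at 13.6, 11.1 and 3.94 CPM with GSK-J4, against 0.510, 0.422 and 0.871 CPM with GSK-J5. IL6 (ENSG00000136244.12, chr7:22725884-22732002) had 88 counts over the GSK-J4 libraries and 3 over the GSK-J5 libraries, a ratio of 36.0 (95% counting interval 11.9 to 178). All of these are low-abundance transcripts, below 20 CPM in every library, and none overlapped between compounds. NFKBIZ, an atypical inhibitor of NF-kB, was the 1 member that fell (-0.38 ± 0.12 (SE)), with a ratio of 0.78 in replicate 3. The promoters of both chemokines (CXCL8 at chr4:73740319-73740618, plus strand; CXCL3 at chr4:74038640-74038939, minus strand) each held 1 match to the core GGAANTTCC, in capitals, searched on both strands.
CXCL8: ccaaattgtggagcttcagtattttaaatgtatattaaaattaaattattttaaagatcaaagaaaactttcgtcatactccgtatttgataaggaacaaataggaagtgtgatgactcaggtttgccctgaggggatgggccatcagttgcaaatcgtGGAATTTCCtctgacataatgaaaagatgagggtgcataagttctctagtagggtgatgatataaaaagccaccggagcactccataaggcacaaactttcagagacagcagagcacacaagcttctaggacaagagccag
CXCL3: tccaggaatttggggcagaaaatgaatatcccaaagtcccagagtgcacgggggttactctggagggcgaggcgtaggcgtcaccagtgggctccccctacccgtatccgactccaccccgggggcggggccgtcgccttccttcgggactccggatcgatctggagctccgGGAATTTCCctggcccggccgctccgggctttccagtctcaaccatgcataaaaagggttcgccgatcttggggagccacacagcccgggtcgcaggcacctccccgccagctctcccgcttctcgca
This core was in 0.965% of all promoter windows, and in 8 of the 15 with an entry on the list.

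Interferon-stimulated genes mostly fell in the first set. Of 25 tested in the first set, 15 fell and 3 rose (20 and 1 under library totals), and 2 of 27 lay above and 2 below in all replicates. The shares of all genes were 20.1% above and 19.2% below, so the fall was not shared by all replicates more often than elsewhere. OAS1, a sensor that makes oligoadenylates, was at 0.929, 0.442 and 14.3 CPM with GSK-J4, against 13.4, 15.5 and 21.1 CPM with GSK-J5. SAMD9, an antiviral factor, was at 0.568, 0.589 and 8.61 CPM with GSK-J4, against 10.5, 11.6 and 12.6 CPM with GSK-J5. IFIH1, the RNA sensor MDA5, was 1 of the 3 that rose, at 14.1, 16.8 and 13.2 CPM with GSK-J4, against 7.36, 6.85 and 10.0 CPM with GSK-J5. OAS1 and SAMD9 were thus very low with GSK-J4 in the first set, and nearer to GSK-J5 in the second. The sets differed for 18 members, all with a higher effect in the second set, and 0 with a lower one; over all genes the difference was called higher for 4704 of 18254 (25.8%) and lower for 3432 (18.8%). The list's median pair ratios were -0.92, -1.16 and 0.19. Of 13 genes of class I antigen presentation, 7 rose and 3 fell (4 and 4 under library totals) in the first set, with a median first-set change of 0.48 that became -0.09 under library totals. HLA-B was at 68.4, 57.0 and 50.1 CPM with GSK-J4, against 34.4, 28.1 and 39.3 CPM with GSK-J5.

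Cytosolic ribosomal protein genes rose almost as a whole and took up a large part of the first-set GSK-J4 libraries. Of 77 tested, 73 rose and 0 fell (69 and 0 under library totals) in the first set, 66 had all GSK-J4 libraries above and 0 had them below, and scaling by library totals left 63 above. They took 16.2, 15.1 and 9.92% of the GSK-J4 libraries, against 6.6, 6.13 and 7.45% of the GSK-J5 libraries. In replicate 3, 69 of 77 pair ratios were above 0, and the median pair ratios were 1.77, 1.83 and 0.52, after 0.90 and 0.68 at 48 h. RPL21 was at 474, 750.3 and 338 CPM with GSK-J4, against 189, 149.7 and 184 CPM with GSK-J5. RPL39 was at 324, 531 and 362 CPM with GSK-J4, against 174, 114 and 200.5 CPM with GSK-J5. The compounds were separate in both genes, although GSK-J4 replicates 1 and 2 were far apart. RPL17, also named by the rule, was below 1 CPM in every library. Many ribosomal protein genes have processed pseudogene copies, so their counts are uncertain to that extent, and the 4 that were not called (RPS9, RPS10, RPL23A and RPL30) had first-set estimates of 1.78 ± 1.14 (SE), 1.17 ± 0.59 (SE), 2.37 ± 0.87 (SE) and 2.69 ± 0.91 (SE). The effect was smaller in the second set for 65 members and larger for 0.

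Host genes of small nucleolar RNAs and other nuclear non-coding RNAs split by kind. Of 17 tested, 14 rose and 3 fell (13 and 3 under library totals), with median pair ratios of 2.77, 2.78 and 0.19. GAS5, a host gene with a terminal oligopyrimidine start (ENSG00000234741.8, chr1:173863900-173868882), was at 1038, 1066 and 231 CPM with GSK-J4, against 94.6, 88.3 and 102 CPM with GSK-J5. SNHG12 was at 28.2, 33.3 and 4.35 CPM with GSK-J4, against 3.28, 1.98 and 2.30 CPM with GSK-J5, and SNHG7 was at 706, 535 and 116 CPM with GSK-J4, against 64.9, 55.7 and 68.0 CPM with GSK-J5. The compounds were separate in all of them, with the GSK-J4 library of replicate 3 the lowest of its group. The 3 that fell are long nuclear transcripts that are not named as small nucleolar RNA hosts: TUG1 at 36.6, 30.9 and 156 CPM with GSK-J4, against 169, 206 and 200.4 CPM with GSK-J5, NEAT1 at 34.6, 27.1 and 31.9 CPM with GSK-J4, against 45.0, 41.4 and 44.3 CPM with GSK-J5, and MALAT1 at 51.5, 44.0 and 70.9 CPM with GSK-J4, against 74.4, 81.0 and 64.5 CPM with GSK-J5. MALAT1 overlapped between compounds, whereas TUG1 and NEAT1 did not.

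Among genes for ribosome assembly and for mitochondrial protein synthesis and respiration, more rose than fell in the first set. Of 29 genes of ribosome biogenesis and RNA polymerase I, 23 rose and 3 fell (16 and 8 under library totals), and 15 lay above in all replicates and 3 below (11 and 8), led by TAF1D, a subunit of the selectivity factor of RNA polymerase I, at 102, 109 and 26.2 CPM with GSK-J4, against 16.4, 14.4 and 13.9 CPM with GSK-J5. Of the 3 that fell, POLR1A encodes the largest subunit of that polymerase and UBTF its upstream binding factor, with first-set changes of -1.44 ± 0.11 (SE) and -1.06 ± 0.11 (SE), and RRP1 one of -0.62 ± 0.15 (SE). Of 75 mitochondrial ribosomal proteins tested in the first set, 54 rose and 8 fell (37 and 16 under library totals), and 28 of 76 lay above and 4 below in all replicates (18 and 10). MRPL21 was at 187, 154 and 61.4 CPM with GSK-J4, against 50.8, 47.0 and 42.5 CPM with GSK-J5, and MRPL50, which fell, was at 5.93, 4.22 and 13.4 CPM with GSK-J4, against 24.1, 22.7 and 22.5 CPM with GSK-J5. Of 74 nuclear genes of oxidative phosphorylation 53 rose and 3 fell (28 and 11 under library totals), and 20 of 75 lay above and 2 below (10 and 7). Over all genes 20.1% lay above and 19.2% below under TMM. COX4I1, a subunit of cytochrome c oxidase, was at 880.3, 853 and 361 CPM with GSK-J4, against 301, 289.6 and 238 CPM with GSK-J5, and NDUFB5, a complex I subunit, was at 383, 354 and 183 CPM with GSK-J4, against 156, 160.3 and 108 CPM with GSK-J5. Genes of the mitochondrial genome did not share that direction: of 12 tested 6 fell and 0 rose (7 and 0 under library totals), and 0 of 13 were separate between compounds. MT-CO3 was at 150.3, 166 and 613 CPM with GSK-J4, against 717, 435 and 985 CPM with GSK-J5. Mitochondrial mRNA made up 0.280, 0.207 and 0.798% of the GSK-J4 libraries, against 0.722, 0.428 and 0.939% of the GSK-J5 libraries, while mitochondrial ribosomal RNA made up 0.381, 0.318 and 0.257% of the GSK-J4 libraries, against 0.0435, 0.0322 and 0.0961% of the GSK-J5 libraries. The part of library preparation in these shares was not tested.

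**Figure D3:**
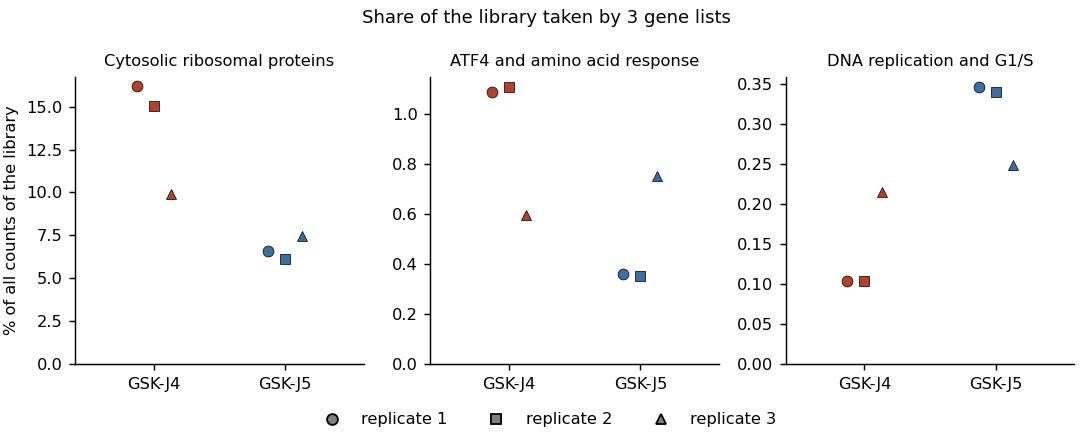
Share of all counts of each library, in percent, taken by ribosomal protein genes, by the ATF4 and amino acid response list and by DNA replication genes, GSK-J4 left and GSK-J5 right in each panel, with 1 symbol per library. Ribosomal proteins take 9.92 to 16.2% with GSK-J4 and 6.13 to 7.45% with GSK-J5; the ATF4 list is higher with GSK-J4 in replicates 1 and 2 and lower in replicate 3.

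The ATF4 list was on opposite sides of 0 in the sets. Of 34 genes, 27 rose and 5 fell (23 and 8 under library totals) in the first set, yet 28 of 34 pair ratios were below 0 in replicate 3, and the medians were 1.59, 1.55 and -0.39. The effect was lower in the second set for 29 members and higher for 0. GDF15, a secreted stress cytokine (ENSG00000130513.6, chr19:18374731-18389176), was at 288, 309 and 104 CPM with GSK-J4, against 1.75, 1.46 and 35.8 CPM with GSK-J5. ATF3, a stress-induced bZIP repressor (ENSG00000162772.17, chr1:212565334-212620777), was at 589, 609.6 and 133 CPM with GSK-J4, against 8.88, 8.93 and 35.5 CPM with GSK-J5. PPP1R15A, the phosphatase subunit GADD34, was at 371, 272 and 141 CPM with GSK-J4, against 25.4, 24.6 and 56.2 CPM with GSK-J5. In all 3 the GSK-J5 library of replicate 3 stood above the GSK-J5 libraries of replicates 1 and 2, and the GSK-J4 library below the others of its group. Their pair ratios in replicate 3 were 1.54, 1.91 and 1.32, so they are among the 6 members above 0 there. Over the list, the GSK-J5 library of replicate 3 had a median log2 ratio of 1.24 to the mean of GSK-J5 replicates 1 and 2, against -0.01 over all genes. The list took 1.09, 1.11 and 0.595% of the GSK-J4 libraries, against 0.361, 0.351 and 0.750% of the GSK-J5 libraries. ASNS, asparagine synthetase, chosen after its values were seen, had pair ratios of 2.63, 2.80 and -1.04. PSPH, which makes serine, and CBS, the first enzyme of transsulfuration, fell in the first set (-1.06 ± 0.12 (SE) and -1.10 ± 0.15 (SE)) and lay below in all replicates. Of 20 cytosolic aminoacyl-tRNA synthetases 19 rose and 0 fell (17 and 1 under library totals), with medians of 1.29, 1.37 and 0.03. KARS1, the lysyl-tRNA synthetase, was at 516, 512 and 191 CPM with GSK-J4, against 127, 126 and 144 CPM with GSK-J5. The 16 mitochondrial synthetases were split, with 4 higher and 7 lower (2 and 11 under library totals).

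Genes of DNA replication fell in the first set and lay close to the control compound in replicate 3. Of 40 tested, 35 fell and 2 rose (39 and 0 under library totals), 22 had all GSK-J4 libraries below and 0 had them above, and the median pair ratios were -1.56, -1.70 and -0.09. POLA2, a subunit of DNA polymerase alpha (ENSG00000014138.9, chr11:65261762-65305589), was at 0.619, 0.393 and 2.13 CPM with GSK-J4, against 6.72, 6.30 and 4.67 CPM with GSK-J5. POLA1, its catalytic subunit, was at 6.97, 7.71 and 15.4 CPM with GSK-J4, against 18.9, 20.8 and 21.3 CPM with GSK-J5, and GINS3, of the replicative helicase, was at 2.63, 2.46 and 4.96 CPM with GSK-J4, against 7.23, 8.21 and 8.32 CPM with GSK-J5. These 3 were lower in every replicate, which the naming rule favours. RRM2, a ribonucleotide reductase subunit, and UHRF1, which reads methylated DNA, both chosen after their values were seen, had pair ratios of -3.81, -3.90 and 0.13 and of -4.28, -4.82 and -0.12. The effect was higher in the second set for 33 of the 40 members and lower for 0. The 2 that rose, RFC4 (0.40 ± 0.11 (SE)) and MCM7 (0.30 ± 0.10 (SE)), had estimates of -0.17 and -0.27 under library totals.

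Mitosis genes fell by less. Of 32, 25 fell and 2 rose (30 and 0 under library totals), 22 lay below in all replicates and 0 above, with medians of -0.79, -0.73 and -0.31, and -0.96 and -1.05 at 48 h. AURKB, the kinase of the chromosomal passenger complex (ENSG00000178999.13, chr17:8204733-8210600), was at 8.51, 10.8 and 18.1 CPM with GSK-J4, against 39.3, 35.6 and 33.2 CPM with GSK-J5. CDC25C, the phosphatase that activates CDK1 (ENSG00000158402.20, chr5:138285265-138338355), was at 4.13, 4.08 and 6.04 CPM with GSK-J4, against 10.4, 10.7 and 10.5 CPM with GSK-J5. NUSAP1, a spindle protein, was at 0.722, 0.737 and 1.2 CPM with GSK-J4, against 1.53, 2.34 and 2.72 CPM with GSK-J5. All were separate between compounds, which the naming rule favours. CDC20, an activator of the anaphase-promoting complex, rose (0.68 ± 0.10 (SE)), as did PLK1 (0.48 ± 0.12 (SE)), whose estimate was -0.09 under library totals. Of 28 genes of homologous recombination and the Fanconi pathway, 20 fell and 4 rose (22 and 2 under library totals). XRCC2, a homologous recombination factor, was at 2.27, 1.23 and 11 CPM with GSK-J4, against 18.7, 15.2 and 18.6 CPM with GSK-J5. FANCE, of the Fanconi core complex, rose, at 50.8, 52.7 and 21.7 CPM with GSK-J4, against 12.5, 12.9 and 12.3 CPM with GSK-J5, as did RBBP8, the resection factor CtIP, at 141, 181 and 65.2 CPM with GSK-J4, against 43.9, 43.6 and 51.9 CPM with GSK-J5. Of 21 replication-dependent histone genes 13 fell and 1 rose (19 and 1 under library totals); their transcripts mostly lack poly(A) tails, and the part of the poly(A) step that the labels name for the second set was not tested. Among growth arrest and p53 target genes 15 rose and 10 fell of 29 (11 and 14 under library totals), with a median first-set change of 0.45 that became -0.12 under library totals, and GADD45A, a stress-induced arrest gene, was at 657, 566 and 110.2 CPM with GSK-J4, against 26.3, 22.8 and 43.4 CPM with GSK-J5.

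Lipid synthesis genes moved in both directions. Of 24 genes of cholesterol synthesis and uptake, 11 fell and 5 rose (17 and 0 under library totals), 3 lay below in all replicates and 0 above, and the effect was higher in the second set for 14 and lower for 0. The share that fell is near that of all genes, 37.1%, and the share below is not above the 19.2% of all genes. TM7SF2, a sterol reductase (ENSG00000149809.14, chr11:65111845-65116384), was at 98.0, 80.7 and 262 CPM with GSK-J4, against 306, 287 and 299 CPM with GSK-J5. LSS, lanosterol synthase, was at 18.5, 13.6 and 45.0 CPM with GSK-J4, against 76.1, 81.2 and 45.1 CPM with GSK-J5. In the second set the compounds lay close together for both. NSDHL, MVK and DHCR7 rose by 0.56 ± 0.12 (SE), 0.44 ± 0.11 (SE) and 0.53 ± 0.12 (SE), and became -0.02, -0.13 and -0.05 under library totals. Of 15 fatty acid synthesis genes 8 fell and 5 rose (12 and 1 under library totals). FASN, fatty acid synthase, was at 208, 239 and 619 CPM with GSK-J4, against 1023, 1005 and 649.7 CPM with GSK-J5, and ACACB, an acetyl-CoA carboxylase, was at 4.44, 3.78 and 8.52 CPM with GSK-J4, against 20.4, 23.8 and 13 CPM with GSK-J5. SLC2A1, the glucose transporter GLUT1, rose, at 637, 725 and 302 CPM with GSK-J4, against 220.2, 211 and 200.3 CPM with GSK-J5, within a glycolysis and hypoxia list of 25 in which 12 rose and 9 fell (4 and 15 under library totals). The share of that list that fell is near the 37.1% of all genes.

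Among Polycomb, HOX and ovarian lineage genes, more members fell than rose. Of 11 Polycomb repressive complex 2 components 7 fell and 2 rose (9 and 2 under library totals), and 3 lay below in all replicates. Over all genes 37.1% fell and 34.6% rose in the first set, and 19.2% lay below in all replicates. EED, a core subunit, was at 8.31, 7.12 and 13 CPM with GSK-J4, against 17.3, 16.7 and 14.8 CPM with GSK-J5. PHF1, an accessory subunit, rose, at 64.9, 63.4 and 31.7 CPM with GSK-J4, against 26.6, 24.1 and 18.1 CPM with GSK-J5. EZH1, the alternative methyltransferase, was at 20.0, 22.2 and 14.2 CPM with GSK-J4, against 9.59, 11.1 and 15.3 CPM with GSK-J5, with groups that overlapped. Of 26 HOX genes 16 fell and 3 rose (19 and 2 under library totals) in the first set, and 11 of 27 lay below in all replicates and 0 above. HOXA4 was at 1.24, 0.786 and 5.31 CPM with GSK-J4, against 9.78, 8.93 and 6.90 CPM with GSK-J5. HOXC13 rose in the first set, at 3.97, 4.12 and 0.788 CPM with GSK-J4, against 0.828, 0.714 and 0 CPM with GSK-J5, and HOXB9 was at 9.24, 11 and 4.26 CPM with GSK-J4, against 1.40, 1.62 and 4.56 CPM with GSK-J5. All 3 are below 12 CPM in every library. Of 14 ovarian and Mullerian lineage genes 11 fell and 0 rose (14 and 0 under library totals), and 7 lay below in all replicates. MECOM, a zinc finger factor amplified in ovarian cancers (ENSG00000085276.18, chr3:169083499-169663618), was at 5.62, 5.55 and 38.9 CPM with GSK-J4, against 48.1, 49.9 and 56.1 CPM with GSK-J5. FOLR1, the folate receptor, was at 12.8, 10.3 and 15.8 CPM with GSK-J4, against 45.0, 45.5 and 19.8 CPM with GSK-J5, and MUC16, which carries the CA-125 antigen, was at 290.4, 343 and 202 CPM with GSK-J4, against 390.5, 493 and 263 CPM with GSK-J5, with overlap. Epithelial genes were split, with 9 higher and 8 lower of 22 (6 and 13 under library totals), near the shares of all genes. KRT7 was at 2317, 2541 and 1346 CPM with GSK-J4, against 568, 561 and 999 CPM with GSK-J5, and ESRP2, an epithelial splicing factor, was at 29.7, 22.9 and 113 CPM with GSK-J4, against 131.5, 126 and 154 CPM with GSK-J5. Of 15 mesenchymal genes and TGF-beta or YAP targets 9 rose and 2 fell (7 and 3 under library totals), led by targets of YAP. Among them ANKRD1 was at 27, 28.8 and 7.35 CPM with GSK-J4, against 5.48, 4.81 and 4.35 CPM with GSK-J5, CCN1 had pair ratios of 2.78, 3.0 and 0.62, and AMOTL2 of 2.03, 2.02 and 0.61.

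Receptors and their signals moved in both directions, as did all genes, of which 34.6% rose and 37.1% fell in the first set. Of 18 growth factor receptors and EGF ligands, 10 fell and 7 rose (11 and 5 under library totals), the share that rose being near that of all genes. ERBB2, the HER2 receptor (ENSG00000141736.13, chr17:39687914-39730426), was at 29.3, 21.4 and 163 CPM with GSK-J4, against 188, 184 and 212 CPM with GSK-J5. FGFR3 was at 2.17, 2.31 and 6.71 CPM with GSK-J4, against 14.7, 10.6 and 11.3 CPM with GSK-J5. HBEGF, an EGF receptor ligand, rose, at 11.2, 14.5 and 2.65 CPM with GSK-J4, against 2.93, 2.53 and 0.627 CPM with GSK-J5, with pair ratios of 1.93, 2.50 and 2.02 although the groups overlapped. ERBB2 and FGFR3 were below in all replicates, with much the larger gap in the first set. Within the neurotrophin list 3 of 12 rose and 8 fell (2 and 8 under library totals). Beside NGFR, BDNF, a neurotrophin, was at 2.63, 2.7 and 1.17 CPM with GSK-J4, against 0.828, 0.974 and 0.662 CPM with GSK-J5. MAGED1, an adaptor that binds the NGFR protein, was at 47.1, 48.6 and 191 CPM with GSK-J4, against 249, 242 and 253 CPM with GSK-J5. Of 17 feedback regulators of ERK 9 rose and 5 fell (7 and 6 under library totals), and 9 lay above in all replicates. DUSP4 and DUSP1, phosphatases of MAP kinases, were at 21.0, 21.1 and 5.81 CPM with GSK-J4, against 2.32, 2.7 and 2.44 CPM with GSK-J5 for DUSP4, and at 91.3, 116 and 24.0 CPM with GSK-J4, against 13.5, 11.6 and 10.9 CPM with GSK-J5 for DUSP1. EDN1, the relative of EDN2, was at 4.02, 2.95 and 0.758 CPM with GSK-J4, against 1.08, 0.779 and 0.697 CPM with GSK-J5, with overlap. Of 21 AP-1 and immediate early genes tested 10 rose and 7 fell (7 and 10 under library totals), and NR4A1, an orphan nuclear receptor, was at 32.1, 33.5 and 21.8 CPM with GSK-J4, against 10.5, 8.41 and 10.1 CPM with GSK-J5.

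More autophagy and lysosome genes rose than fell. Of 30 autophagy and lysosome genes 21 rose and 5 fell (13 and 9 under library totals), and 17 lay above and 1 below in all replicates (11 and 4). TFEB, a master factor of lysosomal genes (ENSG00000112561.18, chr6:41683978-41736259), was at 32.3, 29.1 and 11.9 CPM with GSK-J4, against 4.59, 4.68 and 3.94 CPM with GSK-J5. WIPI1, which binds phosphoinositides on forming autophagosomes, was at 59.2, 56.4 and 36.2 CPM with GSK-J4, against 10.0, 12.2 and 18.8 CPM with GSK-J5. LAMP3 (ENSG00000078081.8, chr3:183122213-183163839) was at 146, 165 and 57.7 CPM with GSK-J4, against 2.80, 3.25 and 33.2 CPM with GSK-J5, with GSK-J5 of replicate 3 again high. Of 16 V-ATPase subunits, which acidify lysosomes, 12 rose and 2 fell (8 and 5 under library totals), led by ATP6V0A2 at 84.6, 94.5 and 44.4 CPM with GSK-J4, against 25.8, 26.7 and 23.6 CPM with GSK-J5. Of 17 BCL2 family genes, which govern cell death, 11 rose and 6 fell (7 and 7 under library totals), with a median of 0.45 that became -0.12 under library totals. BCL2L1, which encodes BCL-xL, was at 275, 299.8 and 153 CPM with GSK-J4, against 141, 135 and 105 CPM with GSK-J5, and MCL1 and the BH3-only gene BMF fell, MCL1 being at 166, 147 and 343 CPM with GSK-J4, against 362, 349 and 404 CPM with GSK-J5 and BMF at 16.7, 12.0 and 71.4 CPM with GSK-J4, against 77.4, 78.3 and 105 CPM with GSK-J5.

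**Figure D4:**
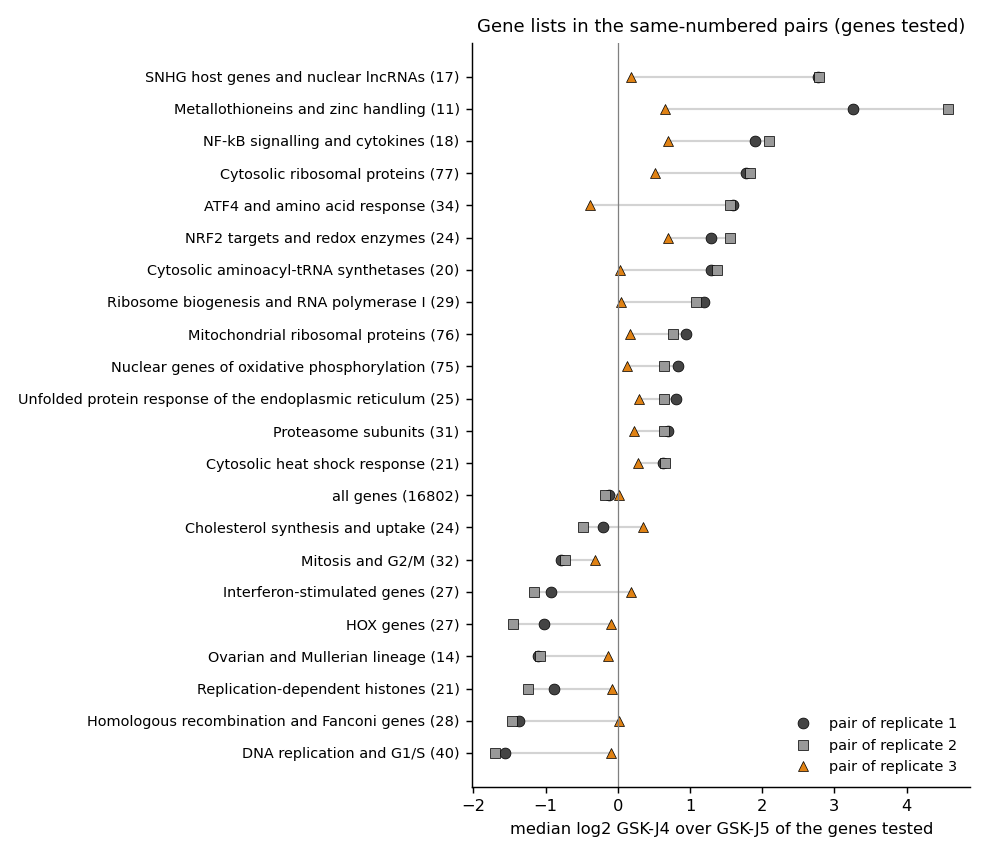
Median log2 ratio of GSK-J4 over GSK-J5 over the genes tested of 21 lists and of all genes (the number is in parentheses), with 1 symbol for each same-numbered pair. The symbols of replicates 1 and 2 lie close together in most lists, but at 3.26 and 4.57 for metallothioneins and zinc handling. That of replicate 3 lies nearer to 0 in all lists shown except cholesterol synthesis, where it is 0.35 beside -0.21 and -0.48. It falls on the other side of 0 for the cholesterol, ATF4, interferon and homologous recombination lists.

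The difference between the sets was tested directly, as the effect in the second set minus that in the first. edgeR called 8136 of 18254 genes (44.6%), and 7502 of them had also been called in the first set, where 71.7% of all genes were called. Of these, 4198 had fallen in the first set and had a difference above 0, and 3273 had risen and had one below 0. The first-set effect is subtracted in the difference, so opposite directions are in part built in. Among the genes with the largest differences, TMEM100, a membrane protein of the BMP pathway (ENSG00000166292.12, chr17:55719627-55732121), was at 10.0, 3.63 and 183 CPM with GSK-J4, against 279, 287 and 160.4 CPM with GSK-J5. LRRTM1, a neuronal leucine-rich repeat protein (ENSG00000162951.11, chr2:80288351-80304749), was at 0.310, 0.196 and 2.22 CPM with GSK-J4, against 14.1, 13.2 and 1.67 CPM with GSK-J5. C14orf132 (ENSG00000227051.6, chr14:96039324-96093889) was at 0.103, 0.196 and 10.1 CPM with GSK-J4, against 10.4, 12.3 and 14.4 CPM with GSK-J5. TMEM100 and LRRTM1 fell in the first set and had ratios of 0.19 and 0.40 in replicate 3, and C14orf132 was lower in each replicate but by far less in the third. DMGDH, a mitochondrial dehydrogenase of choline breakdown (ENSG00000132837.14, chr5:78997606-79236038), was at 21.9, 24.7 and 6.88 CPM with GSK-J4, against 0.287, 0.357 and 3.45 CPM with GSK-J5. GNG5, a G protein subunit, was at 10.9, 7.22 and 1.31 CPM with GSK-J4, against 0.796, 1.30 and 4.11 CPM with GSK-J5, with the order of the compounds turned round in replicate 3. Each set has both compounds, and the second has 1 library of each, so the spread within it was not measured and is taken from the first.

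**Figure D5:**
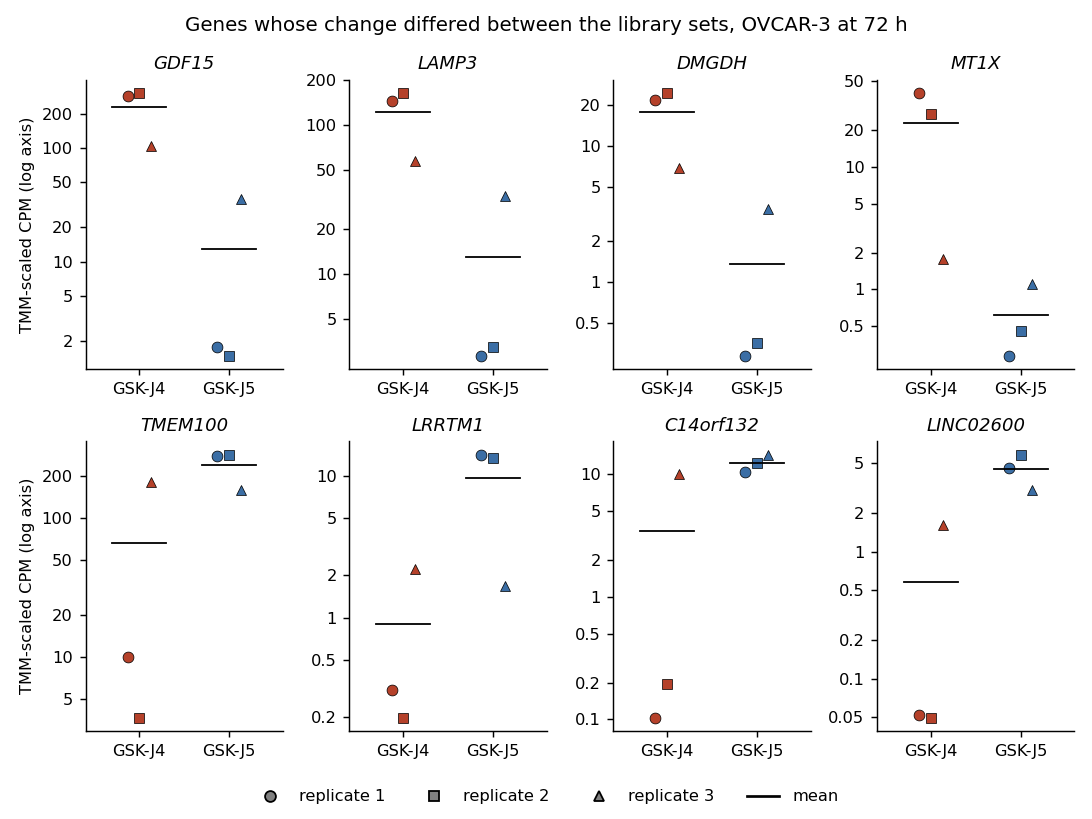
TMM-scaled CPM on log axes of 8 genes whose change differed between the library sets, GSK-J4 left and GSK-J5 right in each panel, with 1 symbol per library and a line at the mean. In the upper row the GSK-J5 library of replicate 3 lies above the other GSK-J5 libraries (GDF15 at 35.8 CPM, beside 1.75 and 1.46 CPM); in the lower row the GSK-J4 library of replicate 3 lies above the other GSK-J4 libraries (TMEM100 at 183 CPM, beside 10.0 and 3.63 CPM).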

How the data were processed

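RNA was sequenced from OVCAR-3 cells treated with 2.5 µM GSK-J4 or GSK-J5 for 72 h. The deposited table holds raw read counts per gene (whole numbers, 58825 gene IDs). Per the submitters' processing notes, the tools were STAR and DESeq2 and the build was GRCh38 (hg38), without versions or roles. How reads were assigned to genes, with which annotation and whether by strand, is not given in the sources used here. A gene name table gave symbols for 58472 IDs, and GENCODE release 29 gave 345 more. A column header abbreviated for the third GSK-J4 library was matched by elimination among the titles.

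Counts were tested with edgeR 4.0.16 in R 4.3.3 (TMM scaling, filterByExpr with a minimum count of 10, robust quasi-likelihood fit, Benjamini-Hochberg adjusted p under 0.05). There were 3 fits: all 6 libraries with the library set as covariate (3 residual degrees of freedom), the 4 first-set libraries (2), and the set by compound interaction. SEs divide the log2 change by the root of its F statistic. Pair ratios add a prior of 1 count to scaled counts. Other scalings, filters, DESeq2 1.42.0, limma 3.58.1 (voom), a replicate block and left-out libraries were alternatives. A count of 0 allows up to 3 counts, 0.0915 to 0.123 CPM by library totals, before the TMM correction that the levels above carry. The correlations of same-numbered deviations from the compound mean were -0.076, 0.043 and 0.001. The set was not removed first, so these values cannot decide whether the numbers pair the libraries.

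The genes, the lists (1097 of 1099 genes matched) and the tests were chosen with earlier results of these data known. Named were KDM6A and KDM6B, genes called over all 6 libraries, the 12 higher and 12 lower first-set calls with the largest smallest pair ratio (same direction in all pairs, mean of at least 2 CPM), the 8 highest and 8 lowest called differences between sets, and up to 3 called members per list and direction. Genes said to be chosen after their values were seen stand outside that rule. List members were taken by the same smallest pair ratio. The rule favours genes whose compounds do not overlap, so separation in named genes follows in part from the choice. Promoter sequences are from RefSeq; MT1M had no entry. Some genes are not reported here.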

Additional observations from a re-analysis of the deposited data

Results flagged for a closer look

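The compound's effect differed between the library sets for 8136 of 18254 genes (44.6%) by edgeR's test of the interaction, and the 16 genes below have the 8 highest and 8 lowest differences of those with a mean of at least 2 CPM. Each value is the log2 effect in replicate 3 minus that in replicates 1 and 2, and no explanation was tested. A large first-set effect thus favours a difference of the opposite sign by construction.

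Genes whose effect was higher in replicate 3 were mostly strongly lowered in the first set. C7orf31 had a difference of 8.51 and CHST7 one of 7.5, with 72 against 0 and 65 against 0 counts in replicate 3, at least 20.1-fold and 18.1-fold, so that the fitted differences depend on the prior count and are no bounds. The other members were ENSG00000272043 at 6.18, LRRTM1 at 6.16, C14orf132 at 5.69, LINC02600 at 5.68, NAP1L3 at 5.66 and TMEM100 at 5.59. LINC02600 was at 0.0516, 0.0491 and 1.63 CPM with GSK-J4, against 4.55, 5.81 and 3.06 CPM with GSK-J5, and NAP1L3, a nucleosome assembly protein relative, was at 0.155, 0 and 2.86 CPM with GSK-J4, against 5.38, 4.32 and 3.48 CPM with GSK-J5.

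Genes whose effect was lower in replicate 3 were raised in the first set. ENSG00000250509 had a difference of -9.31, with 314 against 0 counts in the first set, at least 164-fold, so its fitted value depends on the prior count too. GDF15 followed at -5.98, MT1X at -5.79, the pseudogene RPS15AP38 at -5.58, DMGDH at -5.15, LAMP3 at -4.86, GNG5 at -4.73 and the pseudogene EEF1A1P9 at -4.72. Reads of the pseudogenes cannot be separated from those of their parent genes in these counts.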

How the results depend on the processing

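Over all 6 libraries, the 5 higher and 0 lower calls became 3 higher under library totals, 992 and 334 with no filter on low counts, 3344 and 2990 by DESeq2, 1 higher with no set term, and 3983 and 3635 in a fit of all 10 OVCAR-3 libraries. With the replicate number as a block there were 0 calls, and 4945 genes had an unadjusted p under 0.05. Same-numbered libraries deviated together in none of the pairs beyond r = 0.043. Of the 6 libraries only GSK-J4 replicate 2 correlated best with its own number. These deviations still held the difference between the sets, so they cannot decide whether the numbers mark a pairing. Leaving out a replicate or a library gave 0 to 5688 higher and 0 to 6311 lower calls. There were 0 calls without any 1 of the 4 first-set libraries, 24 and 1 without replicate 1, and 9 and 0 without replicate 2. Without replicate 3 of either compound the set term absorbs the lone second-set library by construction. In the first set, the 5626 higher and 6047 lower calls became 3199 and 8816 under library totals and 2150 and 2881 against a fold of 2, and 5104 to 5466 and 5639 to 6018 with 1 library left out of the 8-library fit. The replicate block gave 5654 and 6026 there. The 4704 higher and 3432 lower differences between sets became 6796 and 1864 under library totals and 3007 and 3161 by DESeq2. The genes with all GSK-J4 libraries above or below became 2056 and 5131 under library totals, an alternative chosen after seeing the data. The other alternatives gave counts within 1.5 times. Under library totals the first-set change of 14 named genes took the other sign, to -0.42 for KDM6B, -0.09 for B2M, -0.02 for NSDHL, -0.13 for MVK, -0.05 for DHCR7, -0.21 for ACSL4, -0.09 for PLK1, -0.17 for RFC4, -0.27 for MCM7, -0.12 for HOXB7, 0 for NTF3, -0.17 for EPCAM, -0.01 for IFT27 and -0.15 for IFT22. Of all values of named genes under alternatives, 2960 kept their side of the threshold, 221 were no longer past it and 81 were newly past it. A further 14 turned and were called in the main fit or the alternative. Values that changed sign without a call in either fit are among the 2960. Of the counts of list members called in the first set under alternatives, 927 were within 1.5 times and 129 were not. By construction, library totals lower all GSK-J4 ratios of the first set alike; other causes were not tested. Depth limits genes with few counts, and 1 library per compound limits the second set.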

Other observations

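Non-coding genes differed from protein-coding ones in the first set. Of 612 long intergenic RNA genes 286 fell and 98 rose, with median pair ratios of -0.97, -1.12 and 0.02. Of 663 antisense genes 319 fell and 83 rose, with medians of -0.99, -1.12 and -0.03. Of 748 processed pseudogenes 350 rose and 75 fell, with medians of 1.69, 0.50 and -0.45. The pseudogene medians of replicates 1 and 2 were thus far apart, and their reads cannot be separated from those of parent genes. Of 13470 protein-coding genes 4908 rose and 5077 fell, with medians of -0.09, -0.08 and 0.04.

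By exon length, the shortest 20% of genes had median pair ratios of 0.35, 0.06 and 0.01, and the longest 20% had ratios of -0.36, -0.35 and -0.03. Among the 77 ribosomal protein genes, 23 belonged to the shortest 20% and 25 to the next, and the median exon length was 2982 bases.

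There were 6 genes with 0 counts in the GSK-J5 library of replicate 3 and at least 1 CPM in each of the other 5 libraries, namely C7orf31, CCM2L, CHST7, ENSG00000247679, GATA2-AS1 and SIK1. The GSK-J4 library of replicate 2 had 1 such gene, HIGD1AP1, and the other 4 libraries had 0.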
